A study of Sus scrofa with 6 samples.

Results

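The genes described here encode bone morphogenetic protein (BMP) ligands, inhibitors of BMP signalling and the ID proteins, which are among the best known targets of that signal. Of 10 listed genes, 7 had an array probe set named by that gene alone: ID1, ID2, ID3, ID4, the ligands BMP4 and BMP7, and the ligand-binding inhibitor FST. They are 7 of the 6765 genes named in this way. BMP2, SMAD6 and SMAD7 had no such probe set and were not analysed here. The 7 genes were measured by 8 probe sets, and the FST probe set with the higher mean stood for that gene.

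The samples were 6 keratinocyte clones of white domestic pigs, 3 from conjunctiva and 3 from central cornea, 1 Affymetrix porcine array each. The corneal biopsies were taken 6 mm from the limbus. Every clone of both tissues was founded by 1 picked cell, with irradiated mouse fibroblasts (3T3-J2) as the feeder layer. The labels name 2 pigs without saying which clone came from which, so at least 2 clones of each tissue shared an animal, and p-values measure only the spread between these samples.

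BMPs are secreted ligands of the TGF-beta family. They bind pairs of type I and type II receptors on the cell surface, which phosphorylate SMAD1, SMAD5 and SMAD9, and these enter the nucleus with SMAD4. Follistatin, the product of FST, binds activins tightly and some BMPs less so, and keeps them from their receptors. ID proteins hold a helix-loop-helix domain but no DNA-binding region, and by pairing with E proteins such as TCF3, TCF4 and TCF12 they keep these transcription factors off DNA. In stratified epithelia ID proteins are mostly known for holding back differentiation, and BMP signalling has roles in the development of the eye and its surface.

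The values are log2 RMA values, in which 1 unit is a doubling of signal, and levels of different probe sets cannot be set against each other. Array medians lay between 4.40 and 4.48. The keratinocyte genes SFN, PERP, DSP and CDH1 exceeded 10 on every array, with lowest values of 12.46, 12.99, 11.61 and 10.58. EPCAM was between 8.22 and 9.61, COL17A1 between 6.13 and 9.62 and CDH3 between 4.40 and 5.51, while ITGA6 was below the array medians on all arrays (3.39 to 3.90). Of the keratinocyte list 8 of 19 genes were measured, with summed levels of 73.1 to 73.9 in conjunctival and 72.8 to 77.8 in corneal clones. KRT5, KRT14 and TP63 were not analysed here. The leukocyte list (7 of 10 measured, sums 25.2 to 26.7 in conjunctiva and 25.6 to 26.5 in cornea) lay below the array medians throughout in its means, and the melanocyte list (5 of 8, sums 19.3 to 20.4 in conjunctiva and 19.3 to 21.1 in cornea) and the endothelial list (6 of 6, sums 26.7 to 28.5 in conjunctiva and 26.8 to 28.1 in cornea) did so for 4 genes each. The endothelial gene PECAM1 was at 7.93, 7.75 and 8.22 in conjunctiva, against 7.11, 7.76 and 7.36 in cornea. Its difference was 0.56 (SE 0.20, limma unadjusted p = 0.0296, adjusted p = 0.9999), with overlap. The other 5 endothelial genes had a lower mean in conjunctiva. The fibroblast list (11 of 14) summed to 57.1 to 61.8 in conjunctiva and 58.4 to 61.4 in cornea. Of its genes 8 had a lower mean in conjunctiva, COL5A1, LUM and PRRX1 without overlap, where 3.83% of all probe sets lay lower without overlap. The other 3, DCN, THY1 and FAP, had a higher mean in conjunctiva. DCN had the largest difference of the list, 0.92 (SE 0.62). The means of 5, COL3A1, LUM, FAP, POSTN and COL6A3, were below 4.445. THY1 stood at 9.98 to 12.24 in conjunctiva and 9.66 to 11.23 in cornea. In such bulk cultures, fewer cells of a type and less RNA per cell cannot be told apart. The 3' minus 5' signal of the actin controls (higher in degraded RNA) overlapped between the groups, at 0.553 to 1.11 in conjunctiva and 0.46 to 1.07 in cornea. It was lowest in clone 1 of both tissues, at 0.553 and 0.46, and so was that of the GAPDH controls. Its part in patterns by clone number was not tested.

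None of the 7 genes passed adjusted p 0.05 between the tissues, and neither did any of the 23999 probe sets tested (0%). At an unadjusted p under 0.05, limma counted 0 of the 7 genes and 648 of all probe sets (2.7%). Each of the 7 had an adjusted p of 0.9999 by limma. The mean was higher in conjunctiva for 6 of the 7 genes, with a median log2 difference of 0.21, where 49.2% of all probe sets and 53.5% of all named genes were higher. The median difference of all named genes was 0.014. With 7 genes read on the same 6 arrays, these counts describe the clones at hand.

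**Figure D1:**
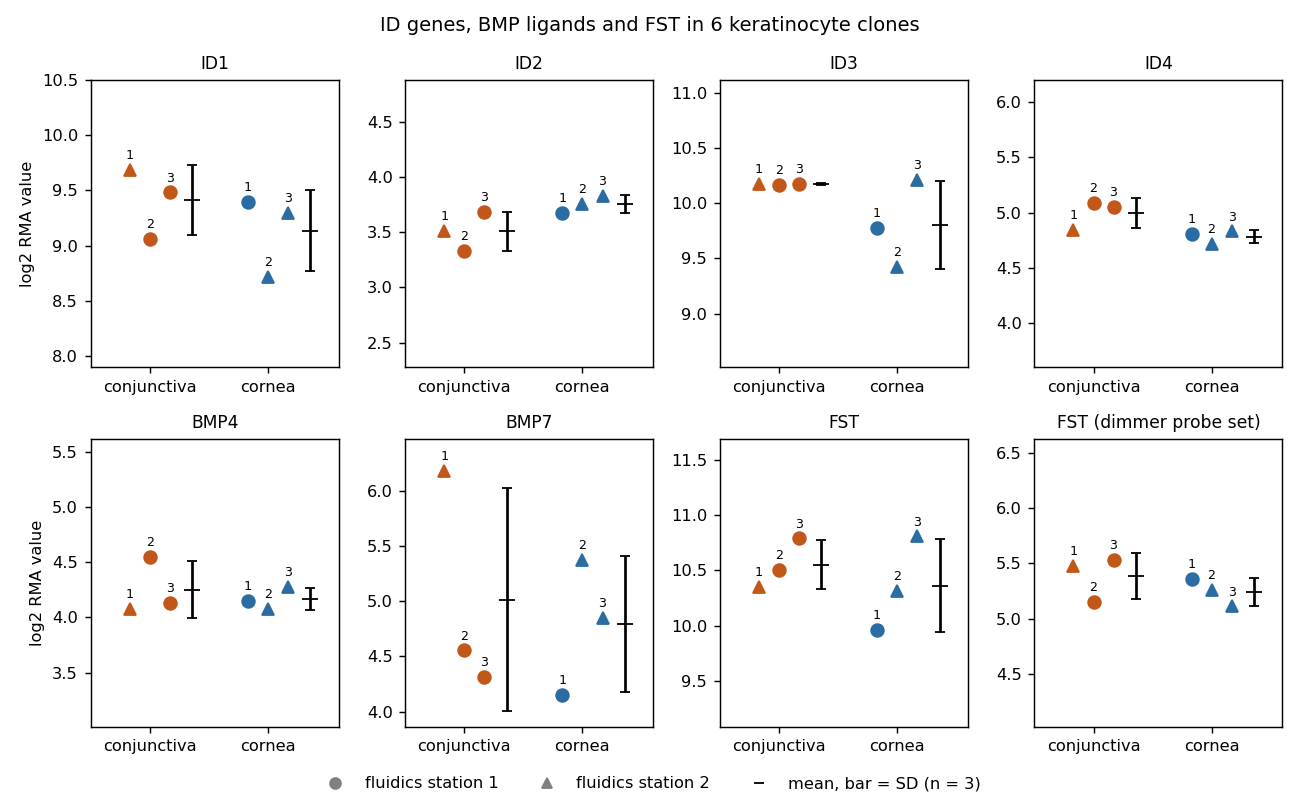
Log2 RMA value of each member probe set (vertical axes, all of the same span) in the 3 conjunctival clones (left, orange) and the 3 corneal clones (right, blue). Numbers are clone numbers, circles and triangles mark fluidics stations 1 and 2, and black marks give mean and SD (n = 3). ID4 is the only gene whose tissues do not overlap, and BMP7 spreads most.

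ID1, in mouse skin and in cultured human keratinocytes a gene of dividing, undifferentiated cells, stood at 9.69, 9.06 and 9.48 in conjunctiva 1, 2 and 3, against 9.39, 8.71 and 9.29 in cornea 1, 2 and 3. The tissues overlapped, but each conjunctival clone was above the corneal clone of its own number, and clone 2 was the lowest and clone 1 the highest in both tissues. The means were 9.41 ± 0.32 in conjunctiva and 9.13 ± 0.37 in cornea (SD, n = 3 each), a difference of 0.28 (SE 0.23), or 1.21-fold. The 95% confidence interval, from -0.28 to 0.84, left out a 2-fold difference. A pairing by clone number was read from these same data. With the clone number as a block the SE was 0.11, the unadjusted p was 0.0448 and the limma adjusted p was 0.9383. ID1 was then the 1 of 7 genes at an unadjusted p under 0.05, as were 5.02% of all probe sets. Without cornea 2 the difference was 0.07.

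ID3, which often follows ID1 in its response to BMP, was nearly equal in the conjunctival clones 1, 2 and 3, at 10.18, 10.17 and 10.18. The corneal clones 1, 2 and 3 were at 9.77, 9.42 and 10.21. Cornea 1 and cornea 2 thus lay below all conjunctival clones, and cornea 3 lay above them. The means were 10.17 ± 0.0059 in conjunctiva and 9.80 ± 0.40 in cornea (SD, n = 3 each), a difference of 0.37 (SE 0.20, 95% interval -0.10 to 0.85). It was 0.58 without cornea 3 and 0.18 without cornea 2.

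ID4, which in mouse is known from neural and mammary progenitors and from the spermatogonial stem cell, was at 4.84, 5.09 and 5.05 in conjunctiva, against 4.80, 4.72 and 4.83 in cornea. It was the 1 gene of the 7 whose tissues did not overlap. The lowest conjunctival and the highest corneal value were 4.842 and 4.832. Of all probe sets, 3.44% lay higher in conjunctiva without overlap and 3.83% lower, and 1 gene of 7 says little against these shares. The difference was 0.21 (SE 0.11, 95% interval -0.05 to 0.48), and it kept its sign in each fit without 1 clone, from 0.16 to 0.29.

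ID2 was the member that lay lower in conjunctiva. It stood at 3.51, 3.33 and 3.68 in conjunctival clones, against 3.68, 3.76 and 3.83 in corneal clones, below the array median on all 6 arrays. The difference was -0.25 (SE 0.12, 95% interval -0.54 to 0.05). The tissues met at conjunctiva 3 (3.679) and cornea 1 (3.675). It was -0.33 without conjunctiva 3 and -0.16 without conjunctiva 2.

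Set beside each other, the 3 brighter ID genes were all lowest in cornea 2. All 3 same-numbered pairs were higher in conjunctiva for ID1 and ID4, and all 3 were lower for ID2. Of all probe sets, 12.2% were higher and 13.1% lower in all 3 pairs.

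Cornea 2 also stood apart in 2 groups of genes outside the BMP pathway. Over the 13 measured of 16 listed proliferation genes, the mean deviation from the 6-clone mean was 0.36, 0.02 and 0.35 in conjunctiva 1, 2 and 3, against 0.09, -1.25 and 0.44 in cornea 1, 2 and 3. The cyclin gene CCNB2 was at 7.28, 6.80 and 7.29 in conjunctiva, against 6.37, 4.59 and 6.96 in cornea, and the topoisomerase gene TOP2A at 7.05, 7.08 and 7.82, against 6.80, 5.06 and 7.90. Over the 6 measured of 14 listed differentiation genes the mean deviation was 0.26, -1.32 and -0.61 in conjunctiva, against 0.61, 1.36 and -0.30 in cornea. The clone with the lowest ID1, ID3 and ID4 thus also had the lowest mean over the proliferation genes and the highest mean over the differentiation genes. It was the highest clone for KRT1, KRT10 and CST6, but not for IVL, KLF4 or CALML5. Conjunctiva 2, the next lowest for ID1, had the lowest differentiation mean. Between the tissues, 13 of 13 proliferation genes had a higher mean in conjunctiva (median difference 0.43), and without cornea 2 it was 5 of 13 (median -0.03). All 6 differentiation genes had a lower mean in conjunctiva (median -0.79), and without cornea 2 it was 5 of 6 (median -0.53). Over all probe sets and all clones, 49.2% had a higher mean in conjunctiva. CST6 was at 7.45, 7.40 and 7.03 in conjunctiva, against 9.13, 11.18 and 9.15 in cornea. CST6 and KRT10, 2 of the 6, lay lower without overlap, where 3.83% of all probe sets did. Both were at an unadjusted p under 0.05 by limma (0.00262 and 0.0387), as were 2.7% of all probe sets. No gene of either list passed the adjusted threshold by limma over all probe sets. The part of proliferation or differentiation in the ID values was not tested.

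**Figure D2:**
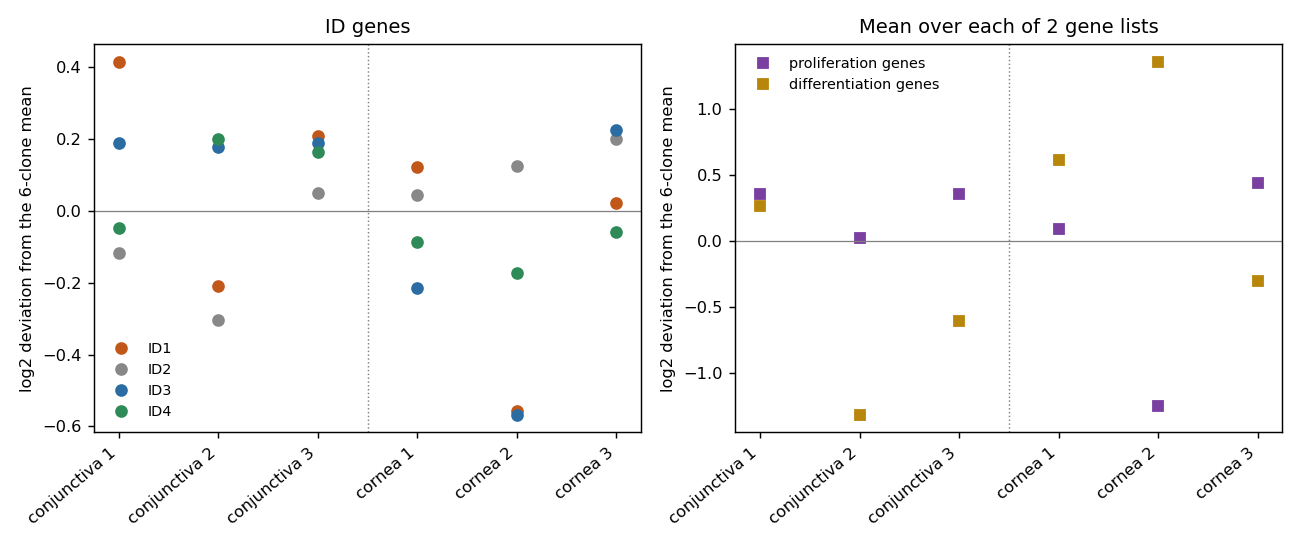
Deviation from the 6-clone mean (log2) of the 4 ID genes (left) and of the mean over 13 proliferation and 6 differentiation genes (right), for each clone along the horizontal axis, with conjunctiva left of the dotted line. Cornea 2 holds the lowest ID1, ID3 and ID4 values, the lowest proliferation mean (-1.25) and the highest differentiation mean (1.36).

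Of the ligands, BMP7 varied most. BMP7 is made by many epithelia and is needed for eye development in mouse. It was at 6.18, 4.55 and 4.31 in conjunctiva 1, 2 and 3, against 4.15, 5.37 and 4.85 in cornea 1, 2 and 3. The highest and lowest clones, conjunctiva 1 and cornea 1, carry the same number and differed by 2.02. The array of cornea 1, and that of conjunctiva 3, had BMP7 below its median. The tissue means were 5.01 ± 1.01 in conjunctiva and 4.79 ± 0.61 in cornea (SD, n = 3 each), a difference of 0.22 (SE 0.54). The 95% interval, -1.06 to 1.501, holds a 2-fold difference in either direction. Without conjunctiva 1 the difference was -0.36, and without cornea 1 it was -0.10.

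The BMP7 values also lay apart by the fluidics station that washed the arrays. Station 2 held conjunctiva 1, cornea 2 and cornea 3, whose BMP7 values averaged 5.47 ± 0.67, and station 1 held the other clones, at 4.34 ± 0.20 (SD, n = 3 each). The 2 sets did not overlap, as for 5.85% of all probe sets, and BMP7 was the 1 member of 7 with this pattern. With the station as a block the tissue difference was 0.67 (SE 0.25, unadjusted p = 0.0377, limma adjusted p = 1). BMP7 was then the 1 of 7 genes at an unadjusted p under 0.05, as were 2.49% of all probe sets. Within station 2 it was 1.06 and within station 1 it was 0.28, each with 1 lone array of 1 tissue that was assumed to vary like the others.

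BMP4, a ligand that in mouse acts early in eye and lens formation, was below the array median on all arrays but that of conjunctiva 2. It stood at 4.08, 4.55 and 4.13 in conjunctiva, against 4.15, 4.08 and 4.28 in cornea. Conjunctiva 2 was the highest clone and the other 5 lay between 4.08 and 4.28. The difference was 0.08 (SE 0.15, 95% interval -0.28 to 0.45), and -0.07 without conjunctiva 2.

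FST was far above the array medians in every clone. It stood at 10.35, 10.51 and 10.79 in conjunctiva 1, 2 and 3, against 9.96, 10.32 and 10.81 in cornea 1, 2 and 3. In both tissues clone 1 was the lowest and clone 3 the highest, and the tissues overlapped. The difference was 0.19 (SE 0.23, 95% interval -0.37 to 0.74). It was -0.01 without cornea 1 and 0.41 without cornea 3. The dimmer FST probe set, at 5.47, 5.15 and 5.53 in conjunctiva, against 5.36, 5.26 and 5.11 in cornea, differed by 0.15 (SE 0.14) but ordered the clones differently. ID1, ID3 and the brighter FST probe set kept the same order of clone numbers in both tissues, 3 of 7 genes, as did 23.8% of all probe sets.

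**Figure D3:**
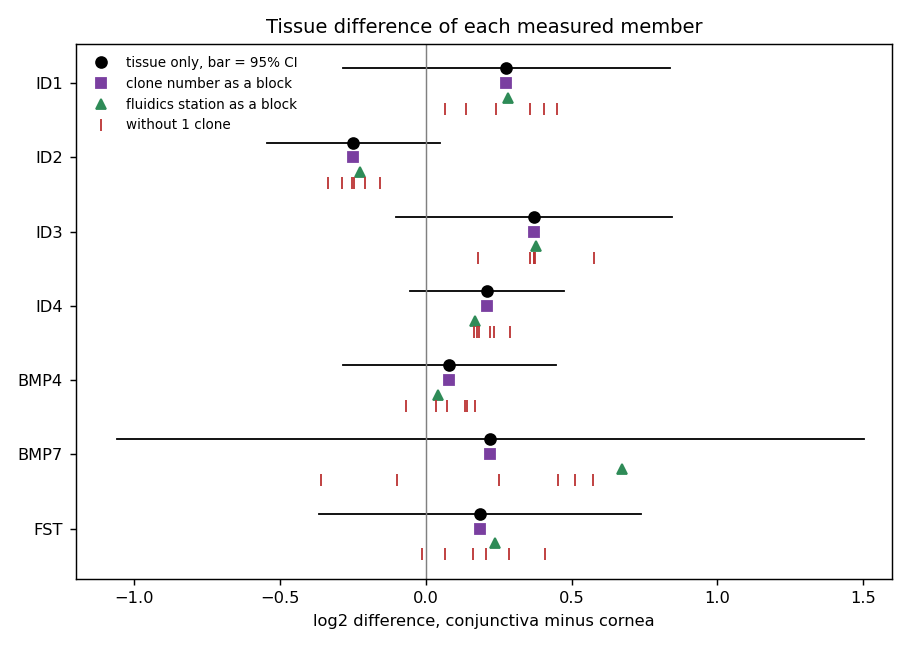
Log2 difference, conjunctiva minus cornea, of the 7 genes. Black points and bars are the fit on tissue alone with its 95% confidence interval, squares and triangles the fits with clone number or fluidics station as a block, and red ticks the fits without 1 clone. All 7 intervals include 0, and BMP7 has the widest, from -1.06 to 1.501.

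Whether the ID genes moved with the ligands and the inhibitor was read from the correlations of log2 values over the 6 clones, for all 21 pairs. No pair passed. By an exact permutation test over all pairings of the clones (two-sided), 0 of 21 pairs had an unadjusted p under 0.05 for Pearson's r. The smallest Benjamini-Hochberg adjusted p over the 21 was 0.7292. For Spearman's rho, 1 pair had an unadjusted p under 0.05. The smallest possible permutation p for rho, 0.0028, is too large for 1 pair alone to pass over the 21. Pearson's r was positive for 11 pairs and negative for 10. The clones may not be independent, and they share the arrays' normalisation.

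The signs among the ID genes were mixed, with 3 of their 6 pairs positive and 3 negative. ID1 and ID3 had r = 0.679 (rho = 0.486, exact permutation p = 0.1611 and 0.3556, adjusted 0.7292 and 1.0). This rested on cornea 2: without it r was -0.02, and without conjunctiva 1 and cornea 2, the clones farthest from the ID1 median, it was -0.291. ID3 and ID4 had r = 0.673 (rho = 0.486, exact permutation p = 0.1056 and 0.3556, adjusted 0.7292 and 1.0), and r = -0.689 without cornea 1 and cornea 2, the clones farthest from the ID3 median. The clones then left had nearly equal ID3, from 10.17 to 10.21, so little can be read from -0.689. In the fits without 1 clone the r of ID3 with ID4 stayed positive, from 0.433 to 0.802. It was 0.775 with station means removed and 0.375 with tissue means removed. ID2 and ID4 ran opposite, at r = -0.625 (rho = -0.6, exact permutation p = 0.1625 and 0.2417, adjusted 0.7292 and 1.0), and r = -0.42 without conjunctiva 1 and 2. With the tissue means removed, the r of ID2 with ID4 was -0.106. ID2 lay below the array median on all 6 arrays and ID4 spanned only 4.72 to 5.09, which limits what this r shows. The other 3 pairs lay between -0.35 and 0.228.

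The 12 pairs of an ID gene with BMP4, BMP7 or FST were also divided, 7 positive and 5 negative, with a median r of 0.086. ID3 and FST had r = 0.614 and the highest rank correlation of all pairs, rho = 0.886 (exact permutation p = 0.1736 and 0.0333, adjusted 0.7292 and 0.7). The r was 0.61 without cornea 1 and cornea 2, where ID3 spanned only 10.17 to 10.21. It was between 0.543 and 0.862 in the fits without 1 clone. These values are of the brighter FST probe set. The dimmer one ordered the clones differently, and its r with ID3 was not computed. With the mean over both probe sets, r was 0.609 for ID3 with FST. For ID1 with FST it was 0.378, against 0.077 by the brighter probe set. Over the 4993 brighter named genes, 16.9% were correlated with FST at least as highly as ID3 was. ID4 and BMP4 had r = 0.628 (rho = 0.371, exact permutation p = 0.1639 and 0.4972, adjusted 0.7292 and 1.0). It was 0.409 without conjunctiva 2 and 3, and 0.079 without conjunctiva 2, the clone with the highest BMP4. BMP4 was below the array median in every other clone, which limits what its pairs show. The remaining 10 pairs lay between -0.583 and 0.487, but some, picked here after their values were seen, changed with the clones left out. ID1 and BMP4 (r = -0.249) had -0.938 without cornea 2 and -0.987 without conjunctiva 1 and cornea 2, but 0.062 without conjunctiva 2. ID1 and BMP7 (r = 0.096) had -0.858 without conjunctiva 1 and 0.589 without cornea 2. ID2 and BMP4 (r = -0.583) had 0.693 without conjunctiva 2.

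**Figure D4:**
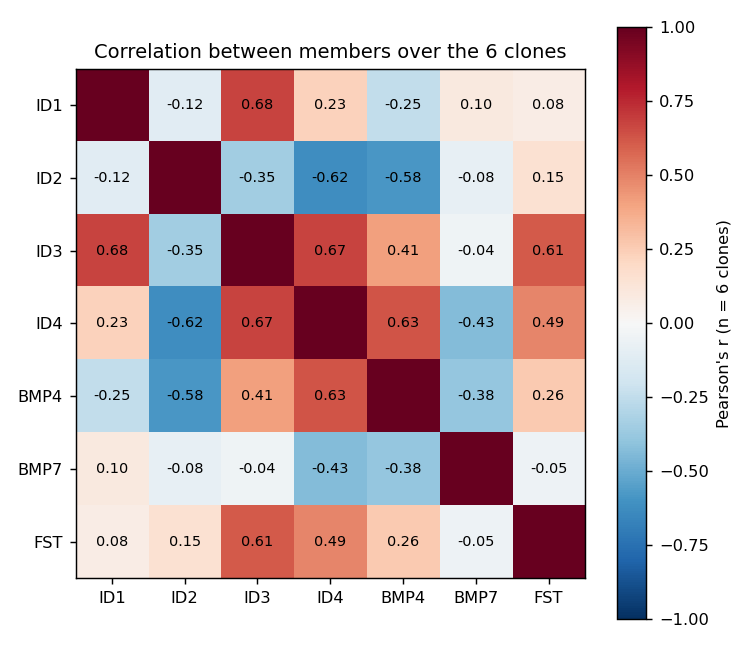
Pearson's r between the log2 values of each pair of the 7 genes over the 6 clones, from -1 (blue) to 1 (red). The highest value is that of ID1 with ID3 (0.68) and the lowest that of ID2 with ID4 (-0.62, from -0.625), and no pair passed the test.

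The 4 pairs of BMP7 with an ID gene had r between -0.43 and 0.096. Conjunctiva 1, with the highest BMP7, also had the highest ID1, at 9.69, but cornea 2, with the next highest BMP7, had the lowest ID1 and ID3. Each fluidics station held 3 clones, too few for a correlation of their own. With the station means removed, BMP7 had r = 0.348 with ID1, -0.802 with ID2, 0.173 with ID3 and 0.306 with ID4, where the values without that step were 0.096, -0.081, -0.042 and -0.43. The sign thus turned for ID3 and ID4. Removing the station means gave 0.672 for ID1 with ID3, 0.65 for ID3 with FST and 0.531 for ID4 with BMP4.

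ID1 had the largest SD of the ID genes over the 6 clones (0.34). Among the 4993 other named genes with a mean at or above 4.445, the ones most like it by Pearson's r over the 6 clones were CDC23 (0.989), which encodes a subunit of the anaphase-promoting complex, the kinase gene VRK1 (0.985), the ribosomal protein gene RPL27A (0.984), ANP32E (0.98), which encodes a histone chaperone, and MBIP (0.98). Those most unlike it were PPGRP-S (-0.973), EGFL8 (-0.959), the small heat shock protein gene HSPB6 (-0.958), ROPN1L (-0.95) and the uridine-cytidine kinase gene UCK1 (-0.942). RPL27A and EGFL8 spanned only 0.19 and 0.21 log2 units over the clones. With so many genes and 6 clones, 23.8% of the genes had r over 0.5 with ID1 and 12.8% had r under -0.5.

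In the wider BMP and TGF-beta pathway 32 of 93 listed genes were measured, 14 higher and 18 lower in conjunctiva. Their differences ran from -0.25 to 0.31 around a median of -0.03. None passed limma over all probe sets, and 2 did not overlap between the tissues, as for 7.28% of all probe sets. At an unadjusted p under 0.05 there was 1 of the 32, as for 2.7% of all probe sets. Both counts are near those shares. That 1 was SMAD4, the partner that all receptor-activated SMADs share, at 7.52, 7.39 and 7.31 in conjunctiva, against 7.02, 7.18 and 7.08 in cornea. Its tissues did not overlap, and the difference was 0.31 (SE 0.11, limma adjusted p = 0.9999). The other transducers measured were SMAD1, which carries the BMP signal, at 0.07 (SE 0.19), and SMAD3, which carries that of TGF-beta and activin, at -0.19 (SE 0.34).

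Of 10 other ligands measured, 4 were higher and 6 lower in conjunctiva, and 6 had a mean below 4.445. GDF11 lay without overlap, at 3.33, 3.75 and 3.68 in conjunctiva, against 3.76, 3.87 and 3.80 in cornea. It was below the array medians in all clones, with a difference of -0.22 (SE 0.14). The dimmer GDF11 probe set differed by -0.08 and overlapped. TGFB1 differed by 0.31 (SE 0.20) and its dimmer probe set by 0.07. INHA, the alpha subunit of inhibin, differed by -0.15 (SE 0.10). Among 9 receptors and co-receptors 4 were higher and 5 lower. TGFBR1, the type I receptor of TGF-beta, differed by 0.21 (SE 0.11), and its 2 dimmer probe sets by -0.08 and -0.21. The type I receptor gene ACVR1 differed by -0.15 (SE 0.11), but its dimmer probe set by 0.11. The activin type II receptor gene ACVR2B differed by -0.25 (SE 0.21).

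Neither of the 2 other inhibitors measured passed. The follistatin-like FSTL3 differed by 0.19 (SE 0.27, 95% interval -0.46 to 0.83) and the decoy receptor BAMBI by 0.06 (SE 0.17). Of 7 other target genes 2 were higher and 5 lower, led by p by GATA3 (-0.10, SE 0.11), DLX5 (-0.20, SE 0.26) and MSX1 (-0.08, SE 0.11). Dimmer probe sets of GATA3 differed by -0.13, -0.22 and -0.38, and that of MSX1 by -0.30. Those at -0.22 and -0.30 did not overlap between the tissues. Of the E proteins that ID proteins bind, TCF4 was measured, below the array medians, with a difference of -0.0049 (SE 0.12).

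**Figure D5:**
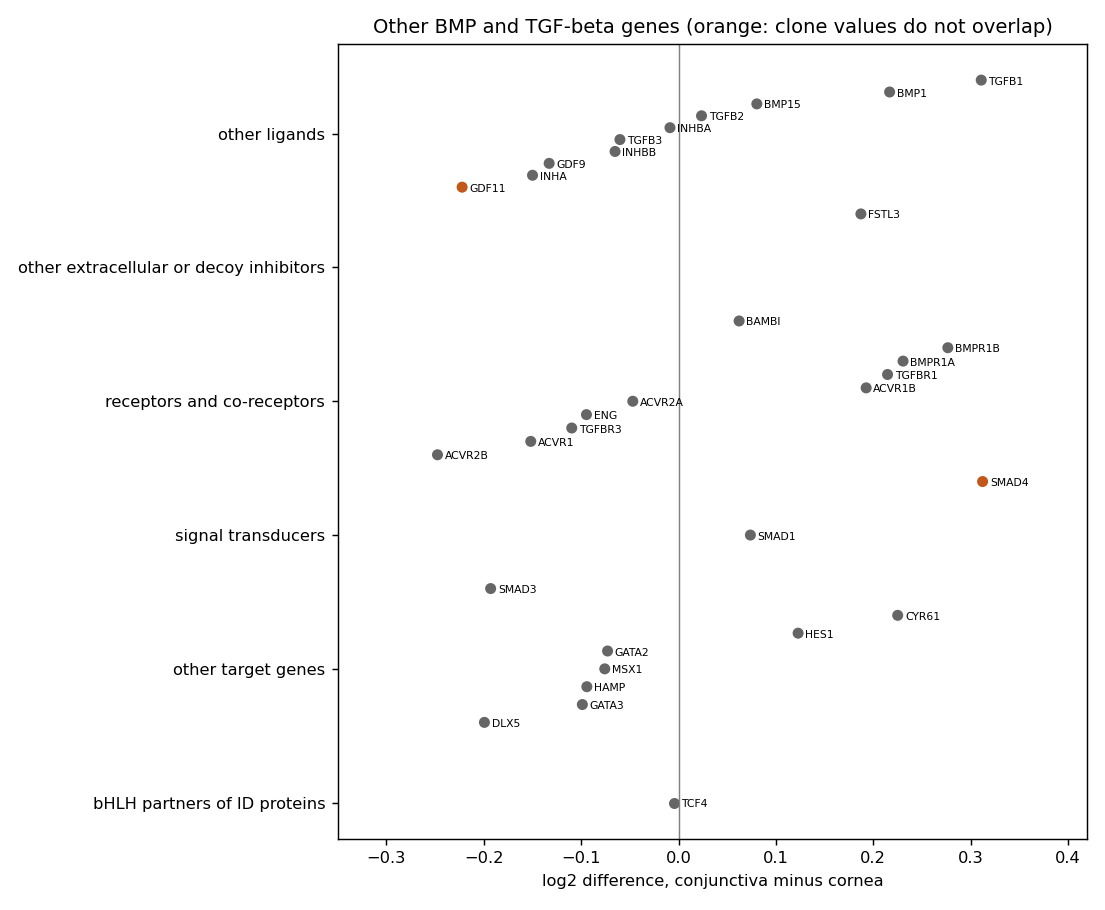
Log2 difference, conjunctiva minus cornea (horizontal axis), of the 32 other BMP and TGF-beta genes measured, by role. Orange marks SMAD4 and GDF11, whose clone values do not overlap between the tissues, as for 7.28% of all probe sets. The differences ran from -0.25 to 0.31 and lie on both sides of 0 in 4 of the 6 groups.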

How the data were processed

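The authors deposited 1 table of log2 values, which they had summarised from probe signals by RMA (robust multi-array averaging), per the submitters' processing notes. Its version and the arrays normalised together are not given in the sources used here. RMA equalises the distribution of values between arrays, so a change in total RNA is not seen. Without the 124 controls, 23999 probe sets were tested and none was filtered out. Precision is limited by the small number of arrays. The probe sets carry no genome build, so positions are left out, and no sequences were at hand. The array's annotation table gave the symbols, and RefSeq genes of the pig assembly Sscrofa11.1 changed 0 of 8 member symbols. A probe set listing BMP7 with another gene was not used.

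Conjunctiva minus cornea was fitted in R 4.3.3 with limma 3.58.1 (linear model and eBayes, two-sided, Benjamini-Hochberg over all probe sets), and tested on simulated data. Correlations used exact permutations in Python 3.11.15. The members, the pathway and marker lists and the tests were chosen with earlier results of these data known. Every member was named, with pathway genes that did not overlap or had 1 of the 3 smallest p of their list, and the 5 genes most and least like the most variable ID gene. The pairs with r beyond 0.6 were picked after their values were seen.

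Same-numbered clones deviated together across probe sets (r = 0.354 for number 1, 0.169 for number 2 and 0.349 for number 3), so the clone number was also fitted as a block. The pairing comes from these correlations of the same data, since the labels do not explain the numbers. Correlations between clones of different numbers were not computed, so what the numbers mark is not known. Fluidics station and module were read from the array run files, whose project field names an irradiation time course that the labels do not mention. Each module number held 1 tissue only.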

Additional observations from a re-analysis of the deposited data

How the results depend on the processing

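The count of probe sets past adjusted p 0.05 was 0 in 14 of 16 alternatives, with a range of 0 to 0 without 1 clone, and it was 2 with limma's trend and robust options and 1 with 1 probe set per gene tested. No member passed in any alternative (0 to 0 without 1 clone), and no pair of members passed (0 to 0). Without 1 clone, or with tissue means removed, the permutations are too few for 1 pair alone to pass over the 21. The 0 pairs of those settings thus say little. The smallest adjusted p of the permutation test without 1 clone was 0.175, without cornea 2. With the clone number as a replicate block no member passed the adjusted threshold, ID1 was at an unadjusted p under 0.05 (0.0448), and the unadjusted count over all probe sets was 1204. At an unadjusted p under 0.05, limma also counted 1 member with the station as a block (BMP7), beside 597 of all 23999 probe sets. It counted 1 without conjunctiva 1 (ID4, beside 585), without conjunctiva 3 (ID2, beside 1025) and without cornea 3 (ID3, beside 1038). With 7 members, 1 counted says little against these background counts. After tissue and clone number were removed too little was left to test pairs, so only r was computed. With so little left, r can lie near 1 or -1 for any pair. It was 0.994 for ID1 with ID3, -0.997 for ID2 with BMP4 and -0.931 for ID4 with BMP7. The fits within a station, r with station means removed and the list counts without cornea 2 were chosen after seeing the data. Each station held 1 lone array of 1 tissue, so no count of members is given for the fits within a station. FST differed by 0.68 within station 1. Differences turned sign within station 1 for ID1 (-0.12) and within station 2 for BMP4 (-0.10) and FST (-0.21). Without 1 clone they ran from 0.07 to 0.45 for ID1, -0.33 to -0.16 for ID2, 0.18 to 0.58 for ID3, -0.068 to 0.17 for BMP4, -0.36 to 0.57 for BMP7 and -0.013 to 0.41 for FST. The correlation of ID1 with ID3 ran from -0.023 to 0.827 without 1 clone and was -0.291 without the 2 clones farthest from the ID1 median. That of ID3 with ID4 was -0.689 without the 2 farthest from the ID3 median, where ID3 spanned only 10.17 to 10.21. The causes were not tested. ID2 in all clones, BMP4 in 5 and BMP7 in 2 lie below the array medians, so their low values limit what can be read from small differences and from their correlations.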

Other observations

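The type I BMP receptor genes BMPR1A and BMPR1B, picked here after their values were seen, ordered the clone numbers alike in both tissues, with clone 1 the highest and clone 3 the lowest. BMPR1A was at 6.66, 6.46 and 6.04 in conjunctiva 1, 2 and 3, against 6.57, 6.19 and 5.70 in cornea 1, 2 and 3. BMPR1B was at 6.23, 5.74 and 5.59 in conjunctiva, against 6.24, 5.52 and 4.96 in cornea. Of its 2 dimmer probe sets, one was also lowest in clone 3 of both tissues (5.33, 5.38 and 4.64 in conjunctiva, against 6.07, 4.86 and 4.60 in cornea), and the other was not. The brighter FST probe set had the opposite order, lowest in clone 1 and highest in clone 3 of each tissue, and the dimmer one did not. A link between FST and these receptor genes was not tested. The 3' minus 5' signal of the actin controls was also lowest in clone 1 of each tissue, and its part in these orders was not tested. The same order of numbers in both tissues, whichever it was, was seen for 23.8% of all probe sets.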
